A study of Mus musculus with 22 samples.

Results

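Apical radial glia are the progenitor cells that line the ventricle of the developing neocortex, and the series separates them into neurogenic cells (aRG-N) and proliferative cells (aRG-P). The comparison described here sets the aRG-N peak list against the aRG-P peak list for H3K4me3 and for H3K27me3, on the 19 autosomes. The 4 lists held 40552 autosomal peaks, out of 110069 peaks in the 10 lists of the series on all chromosomes. A peak was called shared when at least 1 bp of it overlapped a peak of the same mark in the other list, and 5682 of the 40552 peaks were unshared. Unshared peaks were then described by the state of the second mark at the same place.

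The aRG-N and the aRG-P cells came from E14.5 embryos (E is embryonic day) of the C57BL/6JOlaHsd mouse strain, with no genotype or treatment given beyond the strain. Lists for neuroepithelial cells of E9.5 embryos (NEC) and for E14.5 basal radial glia (bRG) and E14.5 neurons (N) served to ask where else a peak occurred. Each cell type had 2 samples per mark. Both H3K27me3 samples of aRG-N are labelled as technical replicates of one another. The markers used to purify the cells and the number of pooled embryos are not given in the sources used here. The cell type labels were not checked against marker genes, because the peaks carry no gene names and the gene table at hand is of another genome build.

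H3K4me3 is trimethylation of lysine 4 on histone H3. It is laid down by COMPASS-type complexes around the start sites of genes that are transcribed or ready to be. H3K27me3 is trimethylation of lysine 27, written by Polycomb repressive complex 2 over genes held silent, among them many developmental regulators. Places with both marks are called bivalent and are frequent in embryonic stem cells and progenitors. Proliferative apical radial glia divide to make more radial glia, whereas neurogenic ones produce neurons or progenitors committed to them.

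Each list was called on combined samples, so replicate spread is unknown for every value and differences between the lists could not be tested. Intervals given with shares are exact Clopper-Pearson 95% intervals. They cover counting error only, and neighbouring peaks are not independent. The read depth of every list is unknown. Depth, immunoprecipitation yield, peak calling and a difference between the cells therefore cannot be told apart. In a mixed cell population, overlap of the 2 marks does not show that they lie on the same chromosome of the same cell. Positions are 1-based in mouse build mm9.

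For H3K4me3, most peaks were common to the 2 cell types, and the unshared ones were mainly weak and narrow. In aRG-N, 1618 of 14278 peaks (11.3%, interval 10.8 to 11.9%) had no aRG-P peak over them. In aRG-P, 542 of 15475 peaks (3.5%, interval 3.22 to 3.8%) had no aRG-N peak over them. By length, 72.6% of the 15.2 Mb covered in aRG-N and 95.2% of the 11.6 Mb covered in aRG-P lay under both lists. Little of the aRG-P list was thus outside the aRG-N list, while the aRG-N list reached beyond that of aRG-P.

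Many unshared H3K4me3 peaks lay beside a peak of the other list rather than alone. An aRG-P peak stood within 1000 bp of 791 unshared aRG-N peaks (48.9%), and an aRG-N peak stood within 1000 bp of 345 unshared aRG-P peaks (63.7%). The median gap was 1142.5 bp for aRG-N and 399.5 bp for aRG-P. The line between shared and unshared was a fine one for some peaks. Gaps under 100 bp set apart 78 unshared aRG-N and 106 unshared aRG-P peaks, whereas 67 shared aRG-N and 113 shared aRG-P peaks rested on an overlap under 100 bp. Peaks with no peak of the other list within 5000 bp numbered 694 in aRG-N (4.86% of the list) and 159 in aRG-P (1.03%).

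The median unshared H3K4me3 peak was 330 bp wide in aRG-N and 235.5 bp in aRG-P, and the median shared one 1009 bp in aRG-N and 656 bp in aRG-P. When each list was divided into quintiles by fold enrichment, the peak caller's ratio of signal to background, the lowest quintile held 1375 of the 1618 unshared aRG-N peaks and 455 of the 542 unshared aRG-P peaks. The unshared share was 48.1% in the lowest and 8.27% in the second quintile of aRG-N, and 14.7% in the lowest and 2.71% in the second quintile of aRG-P. In the highest quintile no peak of either list was unshared, and the upper interval limits were 0.129% for aRG-N and 0.119% for aRG-P. Only 11 unshared aRG-N peaks and no unshared aRG-P peak exceeded a fold enrichment of 10, which 8834 shared aRG-N and 6588 shared aRG-P peaks did. Fold enrichment is the authors' value and ranks peaks within a list only.

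**Figure D1:**
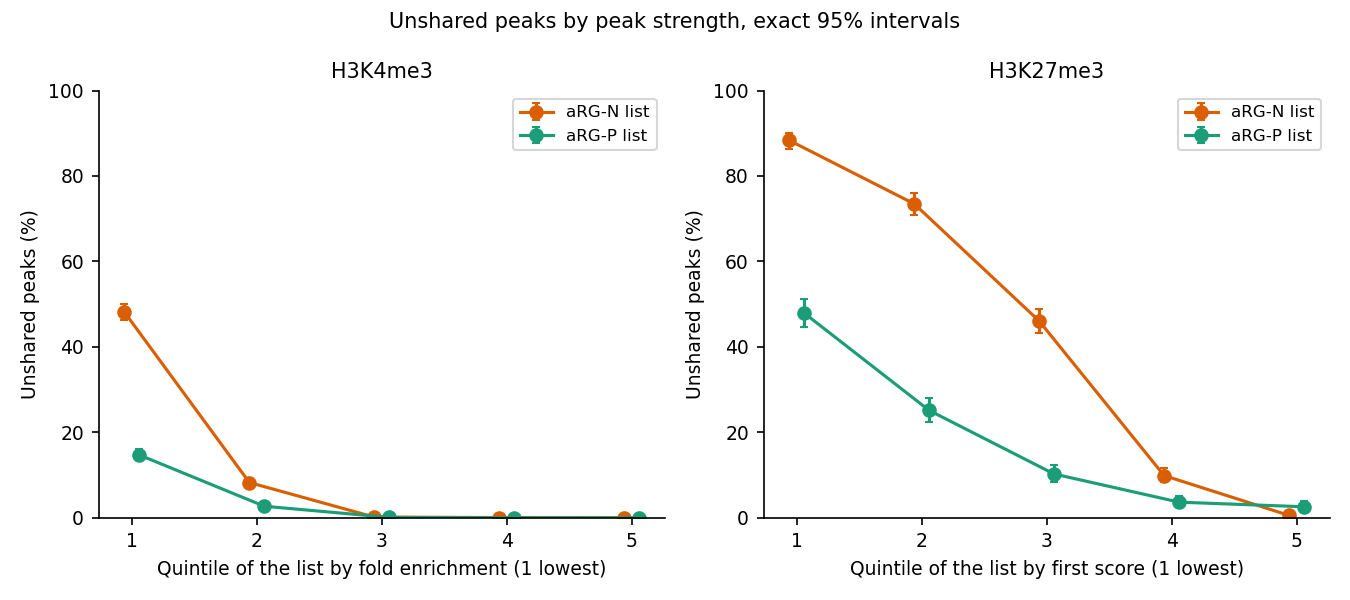
The share of unshared peaks (y axis, %) in each quintile of the aRG-N and the aRG-P list, from the weakest to the strongest peaks, for H3K4me3 (left) and H3K27me3 (right). Points are shares and bars their exact 95% intervals; in the lowest quintile 48.1% of aRG-N and 14.7% of aRG-P H3K4me3 peaks were unshared, and 88.3% of aRG-N and 47.9% of aRG-P H3K27me3 peaks.

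The H3K4me3 sites of aRG-N that ranked highest by fold enrichment, among those with no aRG-P peak within 5000 bp, carried no H3K27me3 in either apical list. They included 2 wide peaks, of 4.57 kb at chr8:97518140-97522709 with a fold enrichment of 14.3 and of 2.63 kb at chr1:173985123-173987747 with 14.1. Both were also in the bRG list and absent from the NEC list, and the chromosome 1 site was in the N list as well. The next 4 sites, at chr9:110856005-110856924, chr6:93860779-93862696, chr15:78602159-78603990 and chr13:110475676-110476437, had fold enrichments of 10.5, 10.1, 10.1 and 9.51. These 4 were in the NEC list and none was in the N list. An aRG-N H3K27me3 peak lay 74 bp from the chromosome 9 site and 295 bp from the chromosome 1 site.

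Most of the matching aRG-P sites lay in H3K27me3. Over all sites with no peak of the other list within 5000 bp the contrast was smaller, since H3K27me3 of either list overlapped 281 of 694 aRG-N sites (40.5%) and 91 of 159 aRG-P sites (57.2%). Of the 6, the 5 at chr4:141155539-141155947, chr4:103292140-103292815, chr9:58048840-58049376, chr7:139158124-139158651 and chr5:37260905-37261339 lay in H3K27me3 of both apical cell types. Their fold enrichment was 8.14 for the first and 7.28 for the other 4. All 5 were also found in the N list and lay in H3K27me3 of NEC and bRG. The first site was 409 bp long and sat in an H3K27me3 domain of 4.80 kb in aRG-N and 3.15 kb in aRG-P. The sixth, at chr3:83959233-83959624, carried no H3K27me3 in either.

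Peaks present in both cell types were also wider in aRG-N. Among 10141 H3K4me3 peaks that paired one to one, the median width was 929 bp in aRG-N and 715 bp in aRG-P, and the median ratio of aRG-N over aRG-P was 1.25. The aRG-N peak was the wider one in 87.4% of the pairs. For H3K27me3, 3096 pairs had median widths of 3551 bp in aRG-N and 2362.5 bp in aRG-P, with a median ratio of 1.36 and 81.8% wider in aRG-N. A ratio of 2 or more was found in 7.95% of H3K4me3 and 23.8% of H3K27me3 pairs. The shift to wider aRG-N peaks was seen for the active as for the repressive mark.

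**Figure D2:**
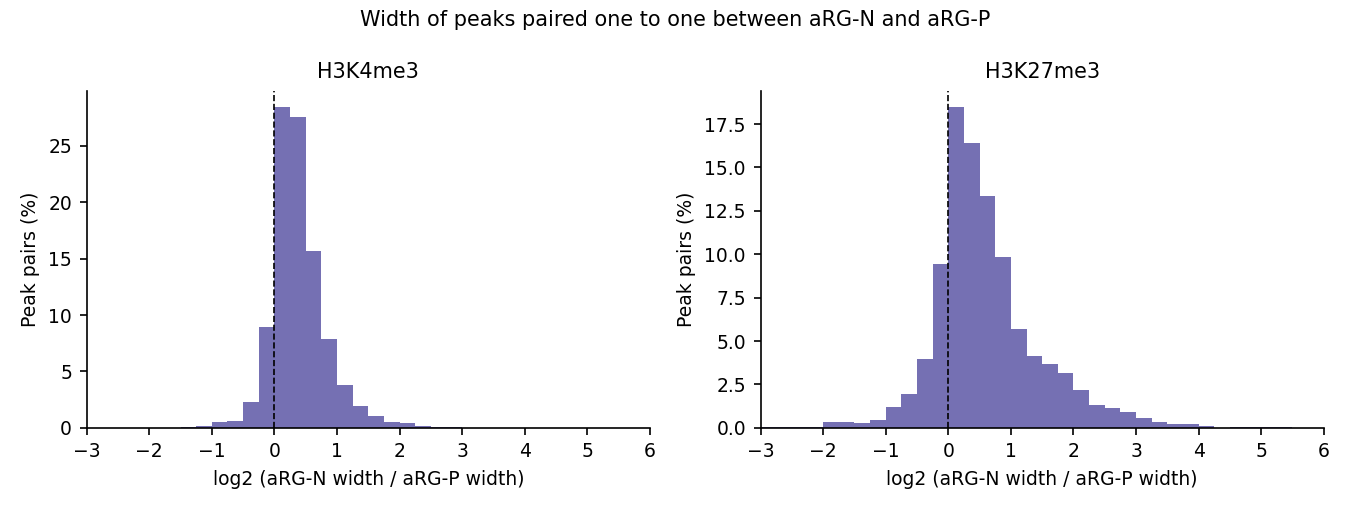
Histograms of the log2 ratio of aRG-N width over aRG-P width (x axis) for peaks paired one to one, as a percentage of pairs (y axis), for H3K4me3 (left, 10141 pairs) and H3K27me3 (right, 3096 pairs). The dashed line marks equal width; most pairs of both marks lie to its right, where the aRG-N peak is wider.

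Wide aRG-N domains often faced several short aRG-P peaks. One aRG-N H3K4me3 peak covered several aRG-P peaks in 2186 cases, and one aRG-P peak covered several aRG-N peaks in 199. For H3K27me3, 310 aRG-N peaks covered several aRG-P peaks and 39 aRG-P peaks covered several aRG-N peaks. Examples chosen after their values were seen are an 8.84 kb aRG-N H3K4me3 domain at chr2:105514686-105523522 that spanned 8 aRG-P peaks, and a 16.9 kb domain at chr2:115882034-115898950 that spanned 6. In both places NEC and N had H3K27me3 and the apical cells had none, and bRG had it at the first. The H3K27me3 domain at chr12:57533250-57647048 measured 114 kb in aRG-N and its partner 43.3 kb in aRG-P.

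H3K27me3 differed between the cell types more often than H3K4me3. In aRG-N, 2692 of 6165 H3K27me3 peaks (43.7%, interval 42.4 to 44.9%) had no aRG-P peak over them. In aRG-P, 830 of 4634 (17.9%, interval 16.8 to 19%) had no aRG-N peak over them. The 2 lists shared 60.1% of the 24.6 Mb covered in aRG-N and 90.8% of the 16.3 Mb covered in aRG-P. As for H3K4me3, more of the aRG-N list was unmatched than of the aRG-P list. With both lists cut to their highest 4634 scores, 1357 aRG-N and 1018 aRG-P peaks were unshared. Lists of equal length can differ in this number only where a peak overlaps several of the other list, so the cut does not show how far list length bears on the excess of unshared aRG-N peaks.

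Unshared H3K27me3 peaks stood apart from the other list. The median distance to it was 34085 bp in aRG-N and 26771.5 bp in aRG-P, and only 117 unshared aRG-N peaks (4.35%) and 124 unshared aRG-P peaks (14.9%) had a peak of the other list within 1000 bp. No peak lay within 5000 bp for 2030 aRG-N peaks (32.9% of the list) and 559 aRG-P peaks (12.1%). Unshared sites of this mark were thus separate regions more often than those of H3K4me3, whose median gaps were far shorter.

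Most unshared H3K27me3 peaks were short. The median was 1032.5 bp in aRG-N and 709.5 bp in aRG-P, and shared peaks had medians of 3831 bp in aRG-N and 2314.5 bp in aRG-P. Unshared peaks over 2 kb numbered 493 in aRG-N and 24 in aRG-P, and unshared peaks over 10 kb numbered 7 in aRG-N and 0 in aRG-P. By width, 85.1% of aRG-N peaks under 1 kb were unshared and 3.39% of those of 5 kb or more. In aRG-P the shares were 41.0% of those under 1 kb and 0 of 792 peaks of 5 kb or more. Nearly all H3K27me3 peaks of 5 kb or more therefore met a peak of the other list, with 44 unshared aRG-N peaks as the exceptions. An overlap of 1 bp sufficed, which a long peak meets more easily. A 22.5 kb aRG-N domain at chr13:78303763-78326232, for example, was shared through an aRG-P peak of 0.593 kb.

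The scores of these lists did not start at the same level. The lowest first score was 15.8 in the aRG-N list and 13.2 in the aRG-P list, and 508 of the 830 unshared aRG-P peaks (61.2%) scored below the aRG-N minimum. Peaks as weak as these had no counterpart in the aRG-N list on this scale, if the scores can be compared. Without peaks below 15.8, 322 aRG-P peaks were unshared. How far the different starting levels made peaks unshared was not tested further.

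The 6 longest aRG-N H3K27me3 domains with no aRG-P peak within 5000 bp contained no H3K4me3 peak in any of the 5 cell types. They were 30.7 kb at chr13:99329794-99360517, 29.7 kb at chr4:44517356-44547067, 21.9 kb at chr4:130414326-130436199, 19.5 kb at chr19:40949022-40968497, 14.9 kb at chr11:84513829-84528719 and 13952 bp at chr5:148030102-148044053. The domains on chromosomes 13 and 19 were also marked in NEC, bRG and N. The domain on chromosome 5 was marked in N, while both chromosome 4 domains and the chromosome 11 domain had no H3K27me3 peak in any other list. The nearest aRG-P H3K27me3 was 103 kb away on chromosome 13 and 5.84 kb away on chromosome 19.

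The aRG-P counterparts were shorter, and some of them overlapped H3K4me3. The longest were 3.88 kb at chr12:120081107-120084989, 3.34 kb at chr4:109647976-109651311, 3.22 kb at chr2:146051134-146054357 and 2.78 kb at chr19:55816827-55819606, followed by chr15:74543040-74545516 and chr17:57108466-57110715. H3K4me3 overlapped 3 of the 6 in aRG-N, namely those on chromosomes 4, 2 and 19, and it overlapped those on chromosomes 4 and 19 in aRG-P as well. The chromosome 2 site joined the end of a 3.55 kb aRG-N H3K4me3 peak, and the nearest aRG-P H3K4me3 peak was 1101 bp away. Over all H3K27me3 sites with no peak of the other list within 5000 bp, the order was the reverse of that among the longest sites. H3K4me3 of either list overlapped 350 of 2030 such aRG-N sites (17.2%) and 52 of 559 such aRG-P sites (9.30%).

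The highest-scoring unshared H3K27me3 peaks, chosen after their values were seen, were mostly short in aRG-P and both short and long in aRG-N. In the highest quintile of the aRG-P list 24 peaks were unshared, and 17 of them were under 600 bp long. The top score of 115 belonged to a 342 bp peak at chr10:127522316-127522657, which NEC and N also held. A further 4 of the 8 highest lay between positions 3015097 and 3036316 of chromosome 9, where aRG-N peaks stood 1784 to 5614 bp away. In aRG-N, a 758 bp peak at chr11:3060030-3060787 scored 115 and a 5.99 kb domain at chr7:37475374-37481360 scored 71.9. Only the second of these lay by H3K4me3, which was present in all 5 cell types.

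The state of the second mark differed between unshared and shared peaks. Of the 1618 unshared aRG-N H3K4me3 peaks, 322 (19.9%) overlapped H3K27me3 of both apical lists, 74 (4.57%) of aRG-N only, 21 (1.30%) of aRG-P only and 1201 (74.2%) of neither. Of the 542 unshared aRG-P H3K4me3 peaks, 164 (30.3%) overlapped H3K27me3 of both lists, 49 (9.04%) of aRG-N only, 4 (0.738%) of aRG-P only and 325 (60.0%) of neither. The most frequent marked state was thus H3K27me3 that did not differ between the lists.

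Counted together, H3K27me3 of either list lay under 25.8% (interval 23.7 to 28.0%) of unshared aRG-N H3K4me3 peaks, against 13.8% of shared ones. In aRG-P it lay under 40.0% (interval 35.9 to 44.3%) of unshared peaks, against 12.1% of shared ones. Where no peak of the other list came within 5000 bp, the shares were 40.5% in aRG-N and 57.2% in aRG-P. Shared aRG-N peaks overlapped H3K27me3 at 38.1% in the lowest and 1.16% in the highest quintile of fold enrichment, so the lowest quintile was also compared by itself. There the order held in aRG-P, with 39.1% of unshared and 22.0% of shared peaks. It turned round in aRG-N, with 26.4% of unshared and 38.1% of shared peaks.

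For unshared H3K27me3 peaks the second mark was rarer. H3K4me3 of either list overlapped 384 of the 2692 unshared aRG-N H3K27me3 peaks (14.3%, interval 13.0 to 15.6%), against 45.1% of shared ones. It overlapped 69 of the 830 unshared aRG-P peaks (8.31%, interval 6.53 to 10.4%), against 36.8% of shared ones. H3K4me3 was in both lists at 288 of the aRG-N and 48 of the aRG-P peaks. The largest group, 2308 aRG-N and 761 aRG-P peaks, had no H3K4me3 of either list.

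The lower H3K4me3 share held among peaks of like width. Between 1 and 2 kb, 15.8% of unshared aRG-N H3K27me3 peaks and 38.9% of shared ones overlapped H3K4me3. In aRG-P the shares in that width class were 11.6% of unshared and 31.1% of shared peaks. Within the lowest quintile of scores they were 6.89% of unshared and 17.4% of shared peaks in aRG-N, and 7.88% of unshared and 15.1% of shared peaks in aRG-P. The difference was small among stronger aRG-N peaks: in the fourth quintile 47.5% of unshared and 51.9% of shared peaks overlapped H3K4me3, and the intervals overlapped.

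**Figure D3:**
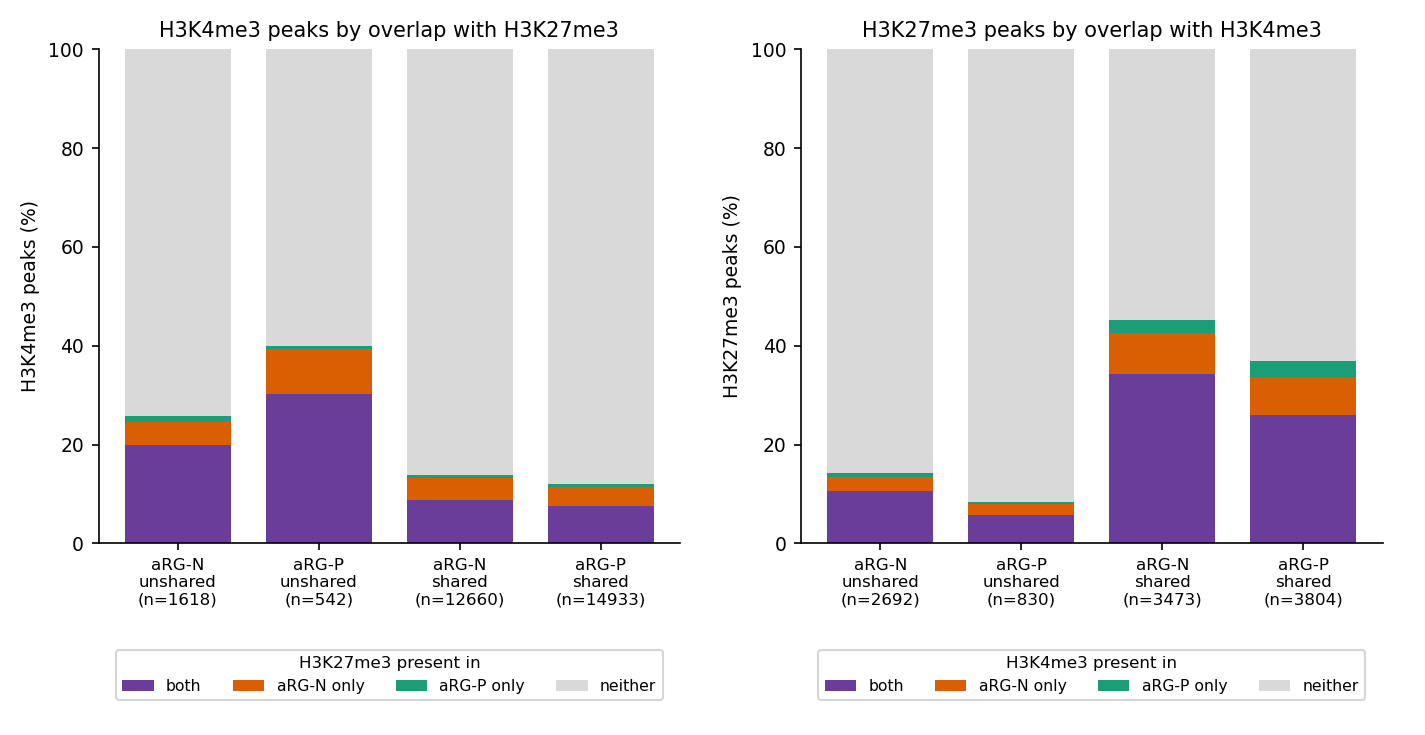
Stacked bars give the percentage of peaks (y axis) by the lists in which the second mark overlapped them, for unshared and shared peaks of aRG-N and aRG-P. In the left panel (H3K4me3 peaks) 25.8% of unshared aRG-N and 40.0% of unshared aRG-P peaks overlapped H3K27me3 of either list; in the right panel (H3K27me3 peaks) 14.3% of unshared aRG-N and 8.31% of unshared aRG-P peaks overlapped H3K4me3 of either list.

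Unshared H3K4me3 peaks that overlapped H3K27me3 of both cell types were described by their strongest examples. The 6 strongest of the 322 aRG-N peaks were at chr1:62752191-62754415, chr1:75215090-75215816, chr8:123607377-123608112, chr1:186555809-186556370, chr10:43723407-43724148 and chr4:109329723-109330351, with fold enrichments of 8.56 to 9.20. The chr8:123607377-123608112 peak measured 736 bp and lay in H3K27me3 of 26.6 kb in aRG-N and 22.8 kb in aRG-P. All 6 were also in the NEC H3K4me3 list. Of the 164 aRG-P peaks, the 2 strongest besides those already named were at chr7:134094004-134094380 and chr3:8509526-8509853, with fold enrichments of 7.71 and 7.33.

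In the reverse case, H3K27me3 differed over H3K4me3 that both lists held. The longest of the 288 aRG-N sites were at chr9:107134495-107142256 (7.76 kb), chr2:152775072-152782753 (7.68 kb), chr12:71210432-71216689 (6.26 kb), chr2:84721882-84727909 (6.03 kb), chr7:37475374-37481360 (5.99 kb) and chr15:36094411-36100116 (5.71 kb). All 6 had H3K27me3 in NEC too, so at these places the mark was not seen in aRG-N alone. At chr2:84721882-84727909, however, neither bRG nor N had it, and bRG lacked it at chr2:152775072-152782753. The other sites had it in both bRG and N. The longest of the 48 aRG-P sites were at chr14:122875691-122879111 (3.42 kb), chr4:109647976-109651311 (3.34 kb), chr13:36058444-36061702 (3.26 kb), chr19:55816827-55819606 (2.78 kb), chr1:165242740-165245062 (2.32 kb) and chr13:103886898-103888832 (1.94 kb). All of these had H3K27me3 in N, and 4 of them in NEC.

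Places where the 2 marks changed places between the cell types were few. H3K4me3 in aRG-N only over H3K27me3 in aRG-P only was found at 21 sites. H3K4me3 in aRG-P only over H3K27me3 in aRG-N only was found at 49. The H3K27me3 peak over the site was itself unshared at 14 of the 21 and at 26 of the 49. At the rest, the other list had H3K27me3 under another part of that peak, so there only the extent of the mark differed. The numbers of sites depend on the lengths of the lists. Cut to equal length, the lists gave 33 sites of the first kind and 26 of the second, and the order turned round. The order held when at least 50% of a peak had to be covered, with 36 of the first kind and 69 of the second. It held above the common lowest H3K27me3 score of 15.8 too, with 12 of the first kind and 60 of the second. Sites whose H3K4me3 peak had none of the other list within 5000 bp numbered 13 of the first kind and 11 of the second. When peaks under 500 bp were left out there were 8 of the first kind and 3 of the second.

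Among H3K4me3 peaks whose H3K27me3 was in 1 list, the opposite list held it at 21 of 95 unshared aRG-N peaks (22.1%, interval 14.2 to 31.8%) and at 84 of 643 shared ones (13.1%, interval 10.6 to 15.9%). For aRG-P the opposite list held it at 49 of 53 unshared peaks (92.5%, interval 81.8 to 97.9%) and at 584 of 684 shared ones (85.4%, interval 82.5 to 87.9%). The intervals of unshared and shared peaks overlapped in both cell types. The high share in aRG-P was present at shared peaks too.

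The 21 sites with H3K4me3 in aRG-N and H3K27me3 in aRG-P were rarely marked by H3K4me3 in N and mostly marked there by H3K27me3. H3K4me3 was in the NEC list at 20 of them, in bRG at 4 and in N at 2. Over all unshared aRG-N H3K4me3 peaks it was in NEC at 85.8%, in bRG at 41.1% and in N at 38.7%, so that the count in NEC is close to the share of the whole class. H3K27me3 was in the N list at 20, in bRG at 13 and in NEC at 8. These sites were picked for aRG-P H3K27me3, whose shared peaks were found in N at 87.1%, in bRG at 69.3% and in NEC at 74.2%. For unshared aRG-P H3K27me3 peaks the shares were 26.4% in N, 7.83% in bRG and 17.5% in NEC. These shares are of whole H3K27me3 peaks, whereas the counts at the 21 sites are overlaps of the H3K4me3 peak, which is not a like measure. At 9 of the 21, the aRG-N cells had no H3K27me3 peak and the aRG-P cells no H3K4me3 peak within 5000 bp. The H3K4me3 peaks of the strongest of these 9 were at chr11:97276835-97277353 with a fold enrichment of 7.93, inside 1.05 kb of aRG-P H3K27me3, and at chr18:20217455-20217950 with 7.93. Others were chr6:113342359-113343012, chr12:8954617-8955097 and chr2:110202768-110203284, with 6.34, 6.03 and 5.41. All 9 had H3K4me3 in NEC and H3K27me3 in N. The N H3K27me3 list was made with reads extended by another length, per its peak names.

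The 49 sites with H3K4me3 in aRG-P and H3K27me3 in aRG-N were in many cases marked in NEC as well, by either mark. H3K27me3 was in NEC at 37, in bRG at 11 and in N at 19. Shared aRG-N H3K27me3 peaks were found in NEC at 78.5%, in bRG at 73.8% and in N at 90%. For unshared aRG-N H3K27me3 peaks the shares were 30.1% in NEC, 7.80% in bRG and 29.5% in N. These shares are of whole peaks, whereas the counts at the 49 sites are overlaps of the H3K4me3 peak, which is not a like measure. H3K4me3 was in NEC at 30, in bRG at 18 and in N at 36. The H3K4me3 counts lie near the shares of all unshared aRG-P H3K4me3 peaks, which were 68.5% in NEC, 30.1% in bRG and 63.7% in N. The median width of their H3K4me3 peaks was 239 bp, while it was 467 bp at the 21 sites of the other kind. Only 6 of the 49 had no peak of the missing mark within 5000 bp in either direction. These 6 were at chr5:139605258-139605652, chr11:56825556-56825850, chr18:46625042-46625266, chr12:85394883-85395064, chr7:151361405-151361755 and chr9:15043524-15043705. The H3K27me3 over the chromosome 12 site was 3.76 kb long in aRG-N, and 5 of the 6 H3K4me3 peaks were also found in the N list.

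The 6 strongest H3K4me3 peaks of each kind were not all isolated. For H3K4me3 in aRG-N the first was chr15:98924088-98924497, with a fold enrichment of 8.56 and no aRG-P H3K4me3 peak for 18.3 kb. The aRG-P H3K27me3 peak over it was shared, and aRG-N H3K27me3 lay 1033 bp from the site. The set also held chr4:64785778-64786100, where the gap was 202 bp, and sites given elsewhere in the text. For H3K4me3 in aRG-P, chr7:19477774-19478065 and chr3:88896562-88896965 had gaps of 1053 and 21 bp, while chr1:169528615-169528823 and chr8:111772942-111773126 stood 89.9 and 316 kb from aRG-N H3K4me3. The strongest exchange sites of aRG-P thus included near neighbours as well as far ones.

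Counted from the H3K27me3 side, 22 unshared aRG-N H3K27me3 peaks overlapped H3K4me3 of aRG-P only, and 18 unshared aRG-P peaks overlapped H3K4me3 of aRG-N only. The longest of the 22 were chr12:85393690-85397449 (3.76 kb), chr7:151360169-151363518 (3.35 kb), chr11:56824395-56826857 (2.46 kb), chr1:134437167-134439079 (1.91 kb), chr18:46624249-46626095 (1.85 kb) and chr17:35956749-35958572 (1.82 kb). The longest of the 18 were chr2:146051134-146054357 (3.22 kb), chr14:122849024-122850565 (1.54 kb), chr1:74350221-74351732 (1.51 kb), chr4:109653589-109654924 (1.34 kb), chr12:8955018-8956147 (1.13 kb) and chr11:97276700-97277748 (1.05 kb). Their median width was 1298.5 bp for the aRG-N and 712.5 bp for the aRG-P peaks. At some of the named sites the H3K4me3 peak was itself shared, so there only the extent of H3K4me3 differed. These were the sites on chromosomes 17, 2 and 4 and chr1:134437167-134439079. The H3K4me3 of the list without overlap lay 18, 1101, 496 and 138 bp from them.

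At some exchange sites the missing H3K4me3 lay close by in the other list. At chr12:87087026-87087457 the aRG-N H3K4me3 peak, which had a fold enrichment of 8.25, ended 57 bp before an aRG-P peak at chr12:87087515-87087853. Each was unshared, and H3K27me3 of aRG-P overlapped both. At chr1:134437231-134438002 an aRG-P H3K4me3 peak with a fold enrichment of 8.14 lay inside 1.91 kb of aRG-N H3K27me3, and the nearest aRG-N H3K4me3 peak was 1.22 kb away. The window around it held 3 H3K4me3 peaks of aRG-P and 1 of aRG-N. It held 2 H3K27me3 peaks of aRG-N, of 1.91 and 0.538 kb, and none of aRG-P, bRG or N.

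A pair of places, chosen after their values were seen, joined several of the sites above. On chromosome 4, in a window of 24 kb, the aRG-N list had H3K4me3 peaks of 8.07 kb at chr4:109648670-109656741 and 1.17 kb at chr4:109647427-109648592 and no H3K27me3. The aRG-P list had 3 H3K4me3 peaks of 0.465, 1.54 and 0.879 kb and 3 H3K27me3 peaks of 3.34, 1.34 and 0.296 kb. The nearest aRG-N H3K27me3 peak was 311 kb away from the longest of these. NEC had one H3K4me3 peak of 7.84 kb within one H3K27me3 domain of 21.9 kb, and N had 0.528 kb of H3K4me3 within 14.7 kb of H3K27me3. Of the 5 cell types, aRG-N was the one without an H3K27me3 peak there, and its H3K4me3 summed to 9.24 kb. The 3 aRG-P H3K27me3 peaks scored 15.4, 15.9 and 15.5, close to the lowest score of the aRG-N list, 15.8, if the scores can be compared. Whether aRG-N held the mark at such a level was not tested.

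On chromosome 14, in a window of 47 kb, both cell types kept H3K27me3 but aRG-N lacked it over the H3K4me3 peaks. The aRG-N list had 3 H3K27me3 peaks there, of 5.60, 7.96 and 3.78 kb, and none of them met an aRG-N H3K4me3 peak. The aRG-P list had 6 H3K27me3 peaks that summed to 22.3 kb. They included 1.54 kb at chr14:122849024-122850565, 1.22 kb at chr14:122861889-122863112 and 3.42 kb at chr14:122875691-122879111, each over H3K4me3 of aRG-N. These 3 scored 16.4, 24.9 and 16.0, where the lowest score of the aRG-N list was 15.8. NEC, bRG and N had H3K27me3 at all 3 of these places. H3K4me3 summed to 6.38 kb in aRG-N and 5.06 kb in aRG-P, against 14.6 kb in NEC and 0.245 kb in N.

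**Figure D4:**
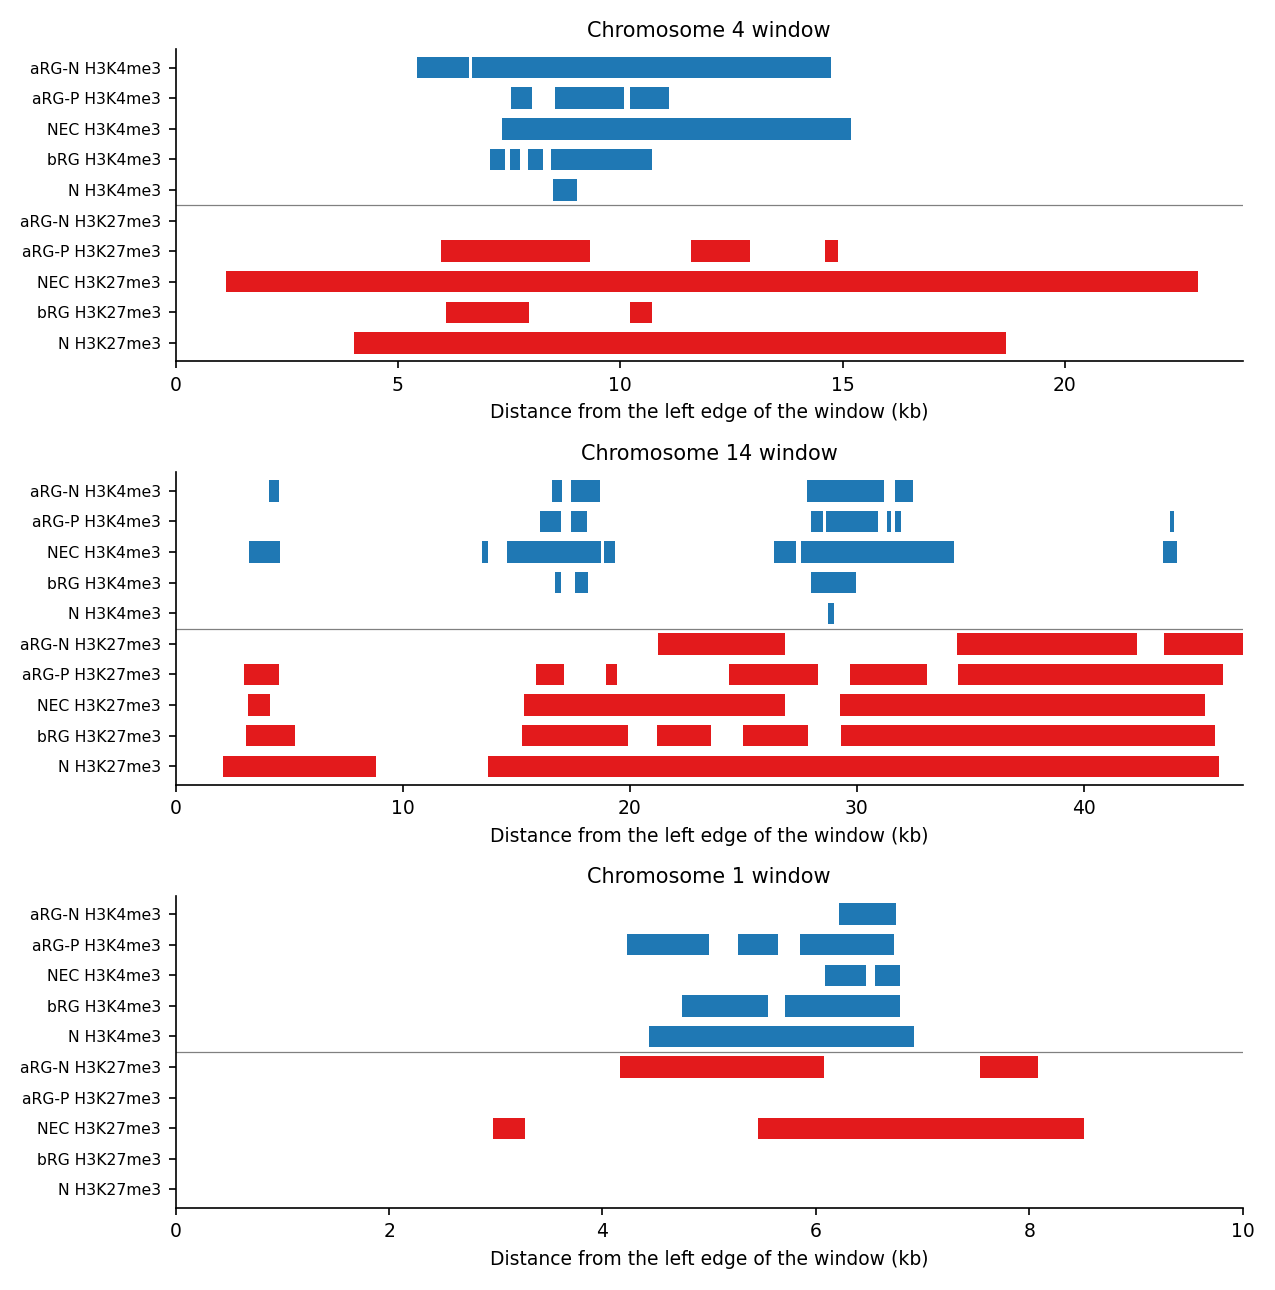
Peaks of H3K4me3 (blue) and H3K27me3 (red) in windows on chromosomes 4, 14 and 1, with one row per cell type and mark; the x axis is the distance from the left edge of the window in kb. In the chromosome 4 window aRG-N has no H3K27me3 and 8.07 kb and 1.17 kb of H3K4me3, in the chromosome 14 window the aRG-N H3K27me3 peaks leave out the H3K4me3 peaks, and in the chromosome 1 window aRG-N and NEC have H3K27me3 and aRG-P has none.

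Unshared H3K4me3 peaks were found in the other cell types more often than unshared H3K27me3 peaks. Of the unshared aRG-N H3K4me3 peaks, 85.8% were found in NEC, 41.1% in bRG and 38.7% in N. Of the unshared aRG-P H3K4me3 peaks, 68.5% were found in NEC, 30.1% in bRG and 63.7% in N. Shared peaks were found at 94.3 to 99.0% in each. The share found in N was the one with the widest difference between the 2 sets, and was higher for the aRG-P peaks.

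Of the unshared aRG-N H3K27me3 peaks, 30.1% were found in NEC, 7.80% in bRG and 29.5% in N. Of the unshared aRG-P H3K27me3 peaks, 17.5% were found in NEC, 7.83% in bRG and 26.4% in N. Shared H3K27me3 peaks were found at 69.3 to 90%, but most unshared peaks are weak, and in the lowest score quintile the difference was smaller. There, 17.7% of unshared and 34.0% of shared aRG-N peaks were found in NEC, 3.67% and 13.9% in bRG, and 18.2% and 50% in N. In aRG-P the shares in that quintile were 14% of unshared and 42.9% of shared peaks in NEC, 5.63% and 27.1% in bRG, and 22.7% and 64.0% in N. No other list held 1473 of the aRG-N peaks (54.7%) and 560 of the aRG-P peaks (67.5%), against 130 (8.03%) of the unshared aRG-N and 47 (8.67%) of the unshared aRG-P H3K4me3 peaks. H3K27me3 peaks seen in a single cell type were thus the most frequent class of unshared H3K27me3 in both apical lists.

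**Figure D5:**
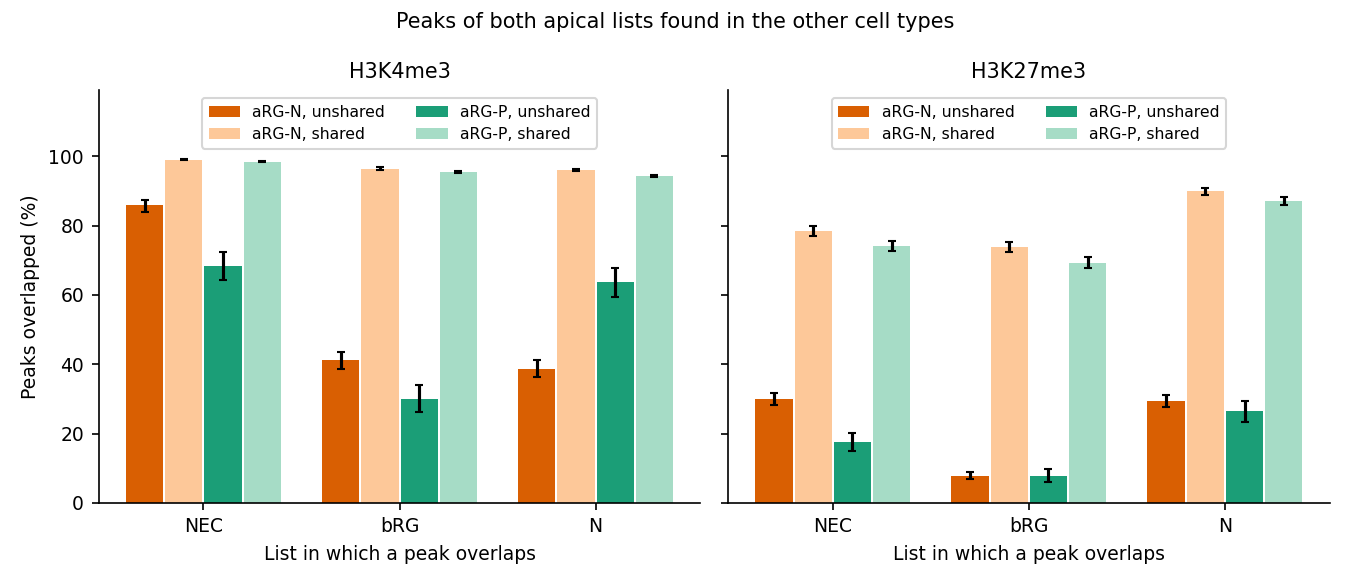
The percentage of unshared and shared aRG-N and aRG-P peaks (y axis) that overlapped a peak of the same mark in the NEC, bRG or N list (x axis), with exact 95% intervals, for H3K4me3 (left) and H3K27me3 (right). Unshared H3K4me3 peaks were found in NEC at 85.8% (aRG-N) and 68.5% (aRG-P), and unshared H3K27me3 peaks at 30.1% (aRG-N) and 17.5% (aRG-P).

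Some sites were missing from one apical list and present in all 4 other lists, a class looked at after the values were seen. For H3K27me3, 115 aRG-N peaks were missing from aRG-P alone and 36 aRG-P peaks were missing from aRG-N alone. H3K4me3 of either list overlapped 69 of the 115 (60.0%, interval 50.4 to 69.0%) and 20 of the 36 (55.6%, interval 38.1 to 72.1%). Over all unshared H3K27me3 peaks, which include these, the shares were 14.3% in aRG-N and 8.31% in aRG-P. For H3K4me3, 361 aRG-N peaks were missing from aRG-P alone and 93 aRG-P peaks from aRG-N alone. H3K27me3 of either list overlapped 20.8% (interval 16.7 to 25.3%) of these aRG-N and 49.5% (interval 38.9 to 60.0%) of these aRG-P peaks. Over all unshared H3K4me3 peaks, which include these, the shares were 25.8% in aRG-N and 40.0% in aRG-P. The contrast was thus much smaller than for H3K27me3.

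The unshared peaks were spread along the genome. By chromosome, the unshared share of H3K4me3 ran from 9.27% on chromosome 16 to 13.3% on chromosome 3 in aRG-N, and from 2.37% on chromosome 7 to 4.43% on chromosome 11 in aRG-P. For H3K27me3 it ran from 39.0% on chromosome 10 to 47.9% on chromosome 14 in aRG-N, and from 12.5% on chromosome 15 to 25.0% on chromosome 16 in aRG-P. Some 1 Mb windows held more. The windows named here had the most unshared peaks of their list, a choice that favours windows rich in peaks. Among windows with an unshared peak, the median number was 1 for H3K4me3 in both lists and 2 for aRG-N H3K27me3. In aRG-N, 16 of 25 H3K27me3 peaks between 91 and 92 Mb of chromosome 1 and 13 of 29 H3K4me3 peaks between 23 and 24 Mb of chromosome 13 were unshared. In aRG-P, 7 of 30 H3K4me3 peaks between 98 and 99 Mb of chromosome 15 were unshared.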

How the data were processed

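Chromatin immunoprecipitation was done with a kit for low cell numbers, per the labels' protocols, and MACS2, bedtools, Bowtie 1.0.0 and the build mm9 are named in the submitters' processing notes. The deposited values were peak lists called on combined samples, per the peak names. For H3K4me3, the authors' caller gave fold enrichment (a ratio), −log10 p and −log10 q values. The 3 deposited H3K27me3 columns are called scores, as their meaning could not be settled. Peaks were kept near transcripts, per the file headers, which for the apical H3K4me3 lists add a window around them. Missing peak numbers were 10.9% (aRG-N) and 8.65% (aRG-P) for H3K4me3, and 36.6% (aRG-N) and 35.7% (aRG-P) for H3K27me3. The aRG-P H3K27me3 peak names say that a set was excluded and do not mention duplicate removal, unlike the other apical lists.

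Overlaps were computed in Python 3.11.15 (pandas 2.3.3, numpy 2.4.6, scipy 1.17.1), drawn with matplotlib 3.10.9, and tested on simulated lists. Named sites were the 6 per mark and direction with no peak of the mark within 5000 bp in the other list, and the 6 per exchange class and per class with the second mark in both lists, by fold enrichment (H3K4me3) or length (H3K27me3). The members and lists were chosen with earlier results of these data known. Gene names and marker genes were not analysed here, since the gene table is GRCm38.p6.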

Additional observations from a re-analysis of the deposited data

Results flagged for a closer look

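Chromosome X was outside the autosomal comparison and held peaks in all 4 lists. H3K4me3 had 523 aRG-N peaks there, 21.6% of them unshared, and 507 aRG-P peaks, 4.73% of them unshared. H3K27me3 had 665 aRG-N peaks there, 74.1% of them unshared, and 441 aRG-P peaks, 54.6% of them unshared. On the autosomes the unshared shares were lower, at 11.3% in aRG-N and 3.5% in aRG-P for H3K4me3, and 43.7% in aRG-N and 17.9% in aRG-P for H3K27me3. The exact interval on chromosome X was 3.06 to 6.96% for aRG-P H3K4me3, whose lower limit lies under the autosomal share.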

How the results depend on the processing

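Of 80 alternative values, 32 moved, which for a count means by over 1.5 times and for a share beyond its 95% interval; the other 48 stayed within these limits. Unshared H3K4me3 peaks numbered 694 in aRG-N and 159 in aRG-P with no peak within 5000 bp, 293 in aRG-N and 33 in aRG-P without peaks under 500 bp, and 2684 in aRG-N when at least 50% of a peak had to be covered. At equal list length aRG-N had 2089 and aRG-P 295. Unshared H3K27me3 peaks numbered 1357 in aRG-N at equal length, and in aRG-P 546 without peaks under 500 bp and 322 above a common lowest score of 15.8, a setting chosen after seeing the data. Equal-length lists differ only where a peak overlaps several of the other list, so they cannot show a net gain or loss. The share of unshared H3K4me3 peaks with H3K27me3 of either list was 40.5% in aRG-N and 57.2% in aRG-P with no peak within 5000 bp, 31.7% in aRG-N and 69.7% in aRG-P without peaks under 500 bp, and 31.1% in aRG-N and 46.7% in aRG-P with H3K27me3 up to 2000 bp away. The share of unshared aRG-N H3K27me3 peaks with H3K4me3 was 20.9% at equal length, 21.0% with 50% covered, 17.2% with no peak within 5000 bp, 18.2% with peaks joined across 3000 bp, 12.8% on all chromosomes, 16.0% without peaks under 500 bp, 16.5% above the common score and 29.0% with H3K4me3 up to 2000 bp away, where aRG-P had 18.8%. Sites with H3K4me3 in aRG-N only and H3K27me3 in aRG-P only numbered 33 at equal length, 36 with 50% covered, 13 with no peak within 5000 bp, 8 without peaks under 500 bp and 12 above the common score. Sites of the reverse kind numbered 26 at equal length, 11 with no peak within 5000 bp and 3 without peaks under 500 bp. Beyond what these settings remove or add by construction, the cause was not tested. No paired analysis was possible because each list pools its samples, and for the same reason no replicate could be left out.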
